A study of Homo sapiens with 12 samples.

Results

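CMAS, CSRP2, SOX2, IQGAP2, RAB23 and C2CD4A are 6 of 19775 genes measured here that were picked because their signal was much higher after BCL6 siRNA than after control siRNA in the lymphoma line Pfeiffer. At their brightest probe sets they rank 4 (CMAS), 5 (CSRP2), 8 (C2CD4A), 13 (SOX2), 20 (IQGAP2) and 21 (RAB23) among the rises of all genes in that line, with no threshold stated. The array carries 14 of its 41091 probe sets with exactly 1 gene symbol for them, namely 4 for SOX2, 3 for RAB23, 2 each for CMAS, CSRP2 and IQGAP2, and 1 for C2CD4A. Total RNA came from Pfeiffer cells transfected with BCL6 siRNA, Pfeiffer cells transfected with the non-target control, OCI-Ly7 cells transfected with BCL6 siRNA and OCI-Ly7 cells transfected with the non-target control, with 3 Affymetrix U133 Plus 2.0 arrays per group and RNA taken 48 h after transfection. Both are established human diffuse large B-cell lymphoma lines of the germinal centre B-cell type, kept in IMDM medium with serum, and the transfections were transient. Pfeiffer control samples carry shRNA in the title and siRNA in the description, and the oligonucleotide sequences are not given in the sources used here. The labels do not say whether replicate arrays stand for independent cultures, and every p-value below reflects the scatter of these arrays alone, possibly only technical scatter.

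BCL6 is a zinc finger repressor of germinal centre B cells that recruits corepressors to its target genes, so removal of BCL6 is known to raise the transcripts that it holds down. The 6 genes belong to no common pathway. CMAS encodes the nuclear enzyme that activates sialic acid for the decoration of cell surface glycans, CSRP2 is a LIM domain protein of the actin cytoskeleton, and RAB23 is a small GTPase known from the mouse as a negative regulator of Hedgehog signalling. SOX2 is a transcription factor of stem cells and neural progenitors, IQGAP2 is a scaffold that binds the GTPases RAC1 and CDC42 as well as calmodulin, and C2CD4A is a C2 domain protein described in endothelial and pancreatic islet cells. Signals are given as log2(signal + 16), on which a signal of 0 reads 4 and which understates the change of dim probe sets, and changes are BCL6 siRNA minus control unless stated otherwise. Pfeiffer values chose the genes, so the Pfeiffer changes below are a description without a test, and OCI-Ly7 values were known as well when the genes were named. Levels of different probe sets are not on a common scale. The choice of a gene's brightest probe set, sums over markers and counts above the array median compare such levels and are therefore rough.

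The knockdown was measured by 3 BCL6 probe sets. The brightest read 13.11, 13.04 and 12.75 on the Pfeiffer BCL6 siRNA arrays, against 13.86, 13.92 and 14.01 on the Pfeiffer control arrays, and 51.3% of the BCL6 signal was left (change -0.96 ± 0.08 SE, limma adjusted p = 1.77e-06). In OCI-Ly7 it read 13.13, 13.10 and 13.15 after BCL6 siRNA, against 13.50, 13.57 and 13.59 in control cells, which left 74.6% (-0.42 ± 0.08 SE, limma adjusted p = 0.0217), a call that leaving out each one of the 6 arrays of that line in turn removed (limma, highest adjusted p = 0.0959). The groups did not overlap in either line. Over all probe sets 4.81% were called in Pfeiffer. On 215990_s_at 40.9% of the BCL6 signal was left in Pfeiffer (limma, adjusted p = 1.85e-07) and 71.3% in OCI-Ly7 (adjusted p = 0.0132). On 228758_at 51.0% was left in Pfeiffer (limma, adjusted p = 3.6e-06) and 89.2% in OCI-Ly7, where it was not called (adjusted p = 0.574). Of 5 measured B cell markers all lay above the array median in each group. Their summed linear signal was 29319 to 33356 after BCL6 siRNA, against 44015 to 44520 in control cells of Pfeiffer. In OCI-Ly7 it was 59313 to 60434, against 49486 to 51685. This sum, in which bright probe sets weigh most, moved with the siRNA in both lines and in opposite directions. In Pfeiffer the change of CD79A was not called (-0.11, limma, adjusted p = 0.563). In OCI-Ly7 MS4A1, PAX5 and CD22 were not called (limma, adjusted p = 0.408, 0.713 and 0.783). The summed signal of 5 germinal centre markers, BCL6 among them, was lower after BCL6 siRNA in both lines. It was 7840 to 9867, against 16158 to 17816, in Pfeiffer, and 28597 to 29421, against 32594 to 33479, in OCI-Ly7. The part of these marker levels in the values below was not tested. A smaller share of cells with a transcript cannot be told apart from less transcript per cell in these bulk samples. Of 5 T cell markers 1 lay above the array median in Pfeiffer under either treatment, namely CD8A, at means of 13.81 after BCL6 siRNA and 13.57 in control cells, while CD3D, CD3E, CD3G and CD2 averaged 5.03 to 6.33 after BCL6 siRNA and 5.32 to 5.96 in control cells. Of 5 epithelial markers 3 lay above it, with EPCAM at 13.87 after BCL6 siRNA and 14.06 in control cells, KRT8 at 7.87 and 7.78 and KRT18 at 8.60 and 8.66. CDH1 averaged 5.45 after BCL6 siRNA and 4.71 in control cells, and KRT19 averaged 4.41 and 5.35.

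CMAS, CSRP2 and RAB23 shared one pattern. On their brightest probe sets the Pfeiffer control arrays were the lowest of all groups, and the Pfeiffer BCL6 siRNA arrays reached or passed the levels of OCI-Ly7. CMAS on 218111_s_at read 10.29, 10.35 and 10.53 after BCL6 siRNA, against 8.52, 8.33 and 8.56 in control cells of Pfeiffer, and 10.17, 10.10 and 9.96, against 10.39, 10.03 and 9.80, in OCI-Ly7. In Pfeiffer the lowest siRNA array lay 1.73 above the highest control array, and in OCI-Ly7 the groups overlapped. The Pfeiffer means were 10.39 ± 0.12 and 8.47 ± 0.13 (SD, n = 3 each), a difference of 1.92 that corresponds to a 3.91-fold ratio of the linear signals. In OCI-Ly7 the change of CMAS was 0.00 ± 0.13 (SE), with a 95% interval of -0.27 to 0.28 (limma, adjusted p = 0.998).

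CSRP2 on 207030_s_at read 9.29, 9.56 and 9.35 after BCL6 siRNA, against 7.23, 7.63 and 7.59 in control cells of Pfeiffer. The OCI-Ly7 arrays read 9.07, 9.04 and 9.13 after BCL6 siRNA, against 9.13, 9.09 and 8.87 in control cells. All 3 Pfeiffer siRNA arrays thus lay above all OCI-Ly7 arrays, and all 3 Pfeiffer control arrays below them. The Pfeiffer means of 9.40 ± 0.14 and 7.48 ± 0.22 (SD, n = 3 each) differed by 1.92, a 4.03-fold ratio of linear signals, while the OCI-Ly7 change was 0.05 (95% interval -0.23 to 0.33, limma adjusted p = 0.966).

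RAB23 on 223463_at read 10.12, 10.47 and 10.11 after BCL6 siRNA, against 8.72, 8.73 and 8.67 in control cells of Pfeiffer, with means of 10.23 ± 0.21 and 8.71 ± 0.03 (SD, n = 3 each). In OCI-Ly7 it read 10.42, 10.05 and 10.03 after BCL6 siRNA, against 9.76, 9.73 and 9.75 in control cells. The siRNA arrays of the 2 lines overlapped with each other and lay above the controls of both lines, which did not overlap. The difference was 1.53 in Pfeiffer, a 2.98-fold ratio of linear signals. In OCI-Ly7 it was 0.42 ± 0.11 (SE), with an interval of 0.17 to 0.66. That value had an unadjusted p of 0.00233 in limma and missed the threshold over all probe sets (limma, adjusted p = 0.157). On this probe set the siRNA and control arrays of RAB23 were thus separated in OCI-Ly7 as well as in Pfeiffer. On 220955_x_at they were apart by only 0.026 in OCI-Ly7. On 229504_at they overlapped there, with a change of 0.17 (limma, adjusted p = 0.929).

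**Figure D1:**
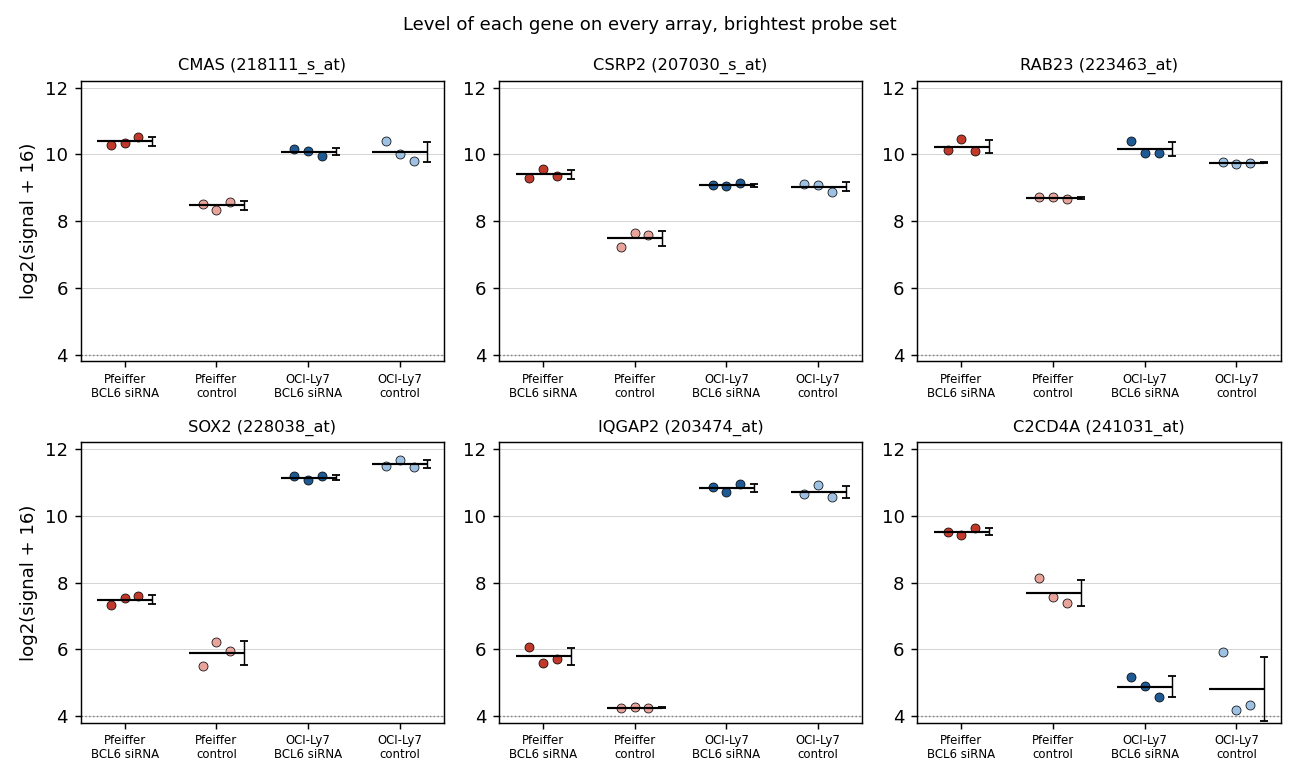
Each panel plots log2(signal + 16) of the brightest probe set of a gene on the 12 arrays, with the siRNA group left of its control, points for arrays, a line for the mean, a bar for the SD and a dotted line at 4, where a signal of 0 would lie. CMAS, CSRP2 and RAB23 are lowest on the Pfeiffer control arrays, SOX2 and IQGAP2 are bright in OCI-Ly7 and dim in Pfeiffer, and C2CD4A is bright in Pfeiffer and near the floor in OCI-Ly7.

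The sequence around the transcription start of the 3 genes with the shared pattern is shown so that it can be read beside their values. Each window runs from 250 bases before the start of the first listed transcript to 50 bases after it (RefSeq, GRCh38.p14, 5′ to 3′ on the gene's strand), at chr12:22045968-22046267 on the plus strand for CMAS, chr12:76878970-76879269 on the minus strand for CSRP2 and chr6:57222258-57222557 on the minus strand for RAB23.
CMAS: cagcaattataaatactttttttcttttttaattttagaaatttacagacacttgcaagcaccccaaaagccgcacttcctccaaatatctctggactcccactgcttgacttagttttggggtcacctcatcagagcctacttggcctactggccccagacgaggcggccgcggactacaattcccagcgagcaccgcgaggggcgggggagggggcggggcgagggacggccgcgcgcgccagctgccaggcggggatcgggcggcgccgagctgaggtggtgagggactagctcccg
CSRP2: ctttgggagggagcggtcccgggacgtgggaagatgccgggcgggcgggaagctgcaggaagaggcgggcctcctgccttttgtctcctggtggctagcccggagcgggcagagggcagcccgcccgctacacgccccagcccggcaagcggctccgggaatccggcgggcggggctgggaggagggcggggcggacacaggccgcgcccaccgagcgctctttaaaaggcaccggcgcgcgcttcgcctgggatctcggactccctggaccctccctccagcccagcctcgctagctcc
RAB23: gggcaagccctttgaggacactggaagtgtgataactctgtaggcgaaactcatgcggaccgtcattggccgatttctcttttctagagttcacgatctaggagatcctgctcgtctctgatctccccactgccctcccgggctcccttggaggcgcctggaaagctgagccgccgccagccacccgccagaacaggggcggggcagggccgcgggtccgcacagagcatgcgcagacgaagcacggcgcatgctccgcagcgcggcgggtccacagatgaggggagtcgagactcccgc
The windows of CMAS, CSRP2 and RAB23 hold 22, 31 and 25 CpG dinucleotides, against a median of 14 over 35116 promoter windows. Of all windows 62.3%, 79.3% and 68% hold fewer than these, in the same order. Among the members without the shared pattern, the first window of IQGAP2 holds more (32), and those of SOX2 (20) and C2CD4A (15) hold fewer. The second listed starts of CSRP2 and RAB23 hold 5 and 16. The GC content of the first windows is 59.0% for CMAS and 73.3% for CSRP2, and that of RAB23 lies between them.

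Letters of the type bound by BCL6 were searched on both strands of 10 start site windows of the 6 genes. The motif TTCCTAGAA was found in 0 of the 10 windows, while 0.373% of all promoter windows hold it. One window of BCL6 itself, which is known to repress its own gene, contains it. The looser motif TTCNNNGAA, which includes the first motif and also describes sites of STAT factors, was found in 1 of the 10 windows, and 7.66% of all windows hold it. That window is the third listed start of IQGAP2, at chr5:76608861-76609160 on the plus strand (RefSeq, GRCh38.p14), where capitals mark the match, whose first letter lies at position -5 from the start.
IQGAP2: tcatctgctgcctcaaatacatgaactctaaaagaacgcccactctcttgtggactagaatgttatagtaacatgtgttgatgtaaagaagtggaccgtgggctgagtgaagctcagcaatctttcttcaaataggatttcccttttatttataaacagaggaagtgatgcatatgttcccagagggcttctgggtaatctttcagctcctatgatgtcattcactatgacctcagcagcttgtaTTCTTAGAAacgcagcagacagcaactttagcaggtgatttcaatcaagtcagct
A match is a description of letters, and no match says only that these letters are not in this window.

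SOX2 and IQGAP2 had a second pattern, with high signals in OCI-Ly7 and low ones in Pfeiffer. SOX2 on 228038_at read 7.34, 7.54 and 7.59 after BCL6 siRNA, against 5.51, 6.21 and 5.96 in control cells of Pfeiffer, with means of 7.49 ± 0.13 and 5.89 ± 0.35 (SD, n = 3 each). In OCI-Ly7 it read 11.19, 11.06 and 11.20 after BCL6 siRNA, against 11.48, 11.68 and 11.47 in control cells. The 4 groups did not overlap, and the lines moved in opposite directions. The Pfeiffer difference was 1.59, which is a 3.67-fold ratio between mean linear signals of 164 and 44.7. In OCI-Ly7 the change was -0.40 ± 0.15 (SE), with an interval of -0.71 to -0.08. Its unadjusted p of 0.0177 in limma did not pass over all probe sets (limma, adjusted p = 0.395), although it did when only the 6 OCI-Ly7 arrays were fitted (limma, adjusted p = 0.043). Even after BCL6 siRNA, SOX2 in Pfeiffer differed from the OCI-Ly7 siRNA arrays by -3.66 on this probe set.

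IQGAP2 on 203474_at read 6.07, 5.60 and 5.70 after BCL6 siRNA, against 4.25, 4.27 and 4.24 in control cells of Pfeiffer. The controls were next to the floor of 4, with a mean linear signal of 3.03, against 39.8 after BCL6 siRNA. Their ratio was 13.1-fold, but the size of the difference rests on the value added before the logarithm. It was 1.54 with 16, 3.31 with 1 and 0.63 with 64. In OCI-Ly7 the probe set read 10.86, 10.71 and 10.95 after BCL6 siRNA, against 10.65, 10.92 and 10.56 in control cells, so the groups overlapped. The change there was 0.13 (95% interval -0.25 to 0.51, limma adjusted p = 0.914), and the Pfeiffer siRNA arrays differed from the OCI-Ly7 siRNA arrays by -5.05 on average.

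C2CD4A was the opposite case, with its signal in Pfeiffer. Its probe set 241031_at read 9.53, 9.43 and 9.63 after BCL6 siRNA, against 8.13, 7.56 and 7.38 in control cells of Pfeiffer, and all siRNA arrays lay above all control arrays. The means of 9.53 ± 0.10 and 7.69 ± 0.39 (SD, n = 3 each) differed by 1.84, a 3.70-fold ratio of linear signals. In OCI-Ly7 it read 5.18, 4.89 and 4.56 after BCL6 siRNA, against 5.93, 4.19 and 4.32 in control cells, linear signals of 2.23 to 45.0 that include values near the floor. Its OCI-Ly7 change of 0.06 had a wide interval of -0.82 to 0.95 (limma, adjusted p = 0.987), so a moderate change in that line was not detectable with these arrays.

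Between the control arrays of the 2 lines, 11 of the 14 probe sets differed, 10 lower and 1 higher in Pfeiffer (limma, Pfeiffer control minus OCI-Ly7 control). The Pfeiffer controls are the arrays titled shRNA, and any part of the control reagent was not tested. Over all probe sets 21.3% were called lower and 19.2% higher in Pfeiffer. This comparison shares the Pfeiffer control arrays with the contrast that chose the genes and is not independent of that choice. The difference was -1.61 ± 0.13 (SE) for CMAS on 218111_s_at (limma, adjusted p = 3.12e-08), -1.54 ± 0.13 for CSRP2 on 207030_s_at (adjusted p = 7.55e-08) and -1.04 ± 0.11 for RAB23 on 223463_at (adjusted p = 1.22e-06). It reached -5.65 ± 0.15 for SOX2 on 228038_at (limma, adjusted p = 8.84e-14) and -6.46 ± 0.18 for IQGAP2 on 203474_at (adjusted p = 1.31e-13). C2CD4A was the member called higher in Pfeiffer, by 2.88 ± 0.41 (limma, adjusted p = 2.6e-05). Where the dimmer line lay near the floor, the size depends on the added value: the difference was -8.69 with 1 and -4.69 with 64 for IQGAP2 on 203474_at, and 4.40 with 1 and 1.70 with 64 for C2CD4A, each still called. The 3 probe sets without a call were 241723_at of IQGAP2 (-0.16) and 220955_x_at and 229504_at of RAB23 (-0.32 and -0.55). CSRP2 on 211126_s_at (-0.51, limma, adjusted p = 0.0141) lost its call without OCI-Ly7 control replicate 2 (adjusted p = 0.052) and without Pfeiffer control replicate 1 (adjusted p = 0.0558). With 3 arrays against 3, the exact two-sided permutation test cannot go below p = 0.1, and it gave 0.1 for the brightest probe set of each of the 6 genes.

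The probe sets of a gene did not always read alike. In Pfeiffer the siRNA arrays lay above the control arrays without overlap for 9 of the 14 probe sets, beside 10.4% of all probe sets, a count that the choice of genes itself produced. RAB23 and CSRP2 were the genes with several probe sets that all showed it. For RAB23 the changes were 1.53 on 223463_at, 1.27 on 229504_at and 0.96 on 220955_x_at. For CSRP2 they were 1.92 on 207030_s_at and 1.25 on 211126_s_at, which read 8.88, 8.55 and 9.01 after BCL6 siRNA, against 7.43, 7.56 and 7.71 in control cells of Pfeiffer.

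CMAS and IQGAP2 each had a probe set without the rise. CMAS on 241065_x_at read 7.82, 7.68 and 7.57 after BCL6 siRNA, against 7.60, 8.01 and 7.63 in control cells of Pfeiffer, so that the groups overlapped and the change was -0.06. The suffix of that probe set, which 220955_x_at of RAB23 shares, marks a set whose probes can also match other transcripts. Probe sequences were not at hand, so the transcripts matched by the other probe sets, those with the rise included, were not examined either. IQGAP2 on 241723_at read 5.96, 5.07 and 5.24 after BCL6 siRNA, against 6.38, 4.19 and 6.07 in control cells of Pfeiffer, with a change of -0.13. Its readings in OCI-Ly7 were as scattered, 4.39 to 6.69 on the control arrays, although 203474_at of the same gene was steady there.

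**Figure D2:**
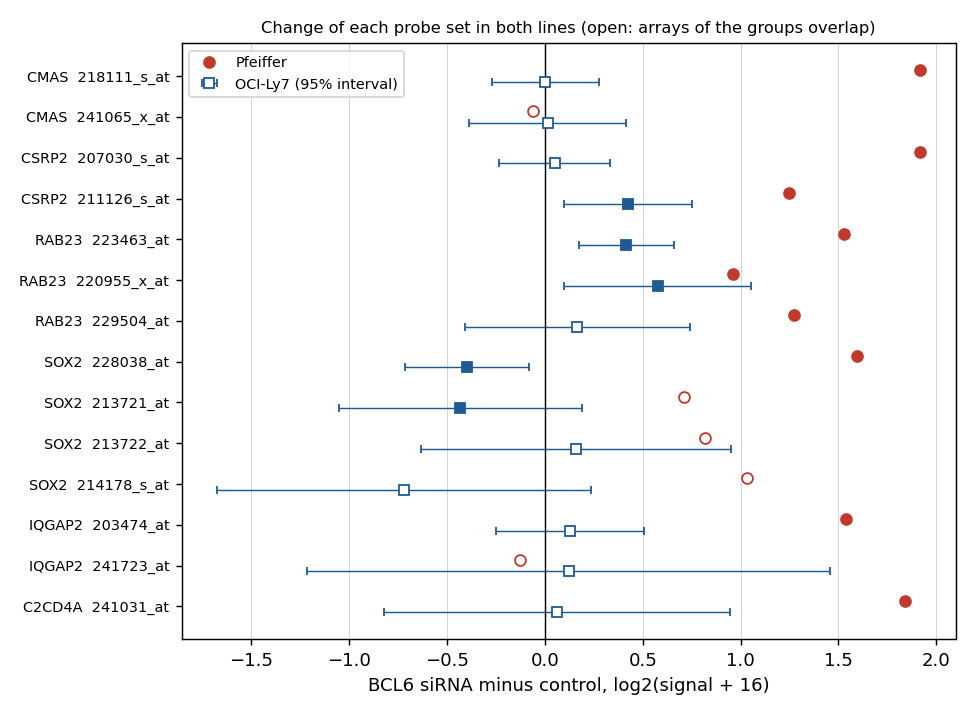
Change (BCL6 siRNA minus control, log2(signal + 16)) of the 14 probe sets in Pfeiffer (circles, no interval because the genes were chosen on them) and in OCI-Ly7 (squares with 95% intervals from limma), with open symbols where the arrays of the groups overlap. The Pfeiffer values run from -0.13 to 1.92, and the OCI-Ly7 values from -0.72 to 0.58.

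SOX2 was measured by 4 probe sets, and all read higher on average after BCL6 siRNA in Pfeiffer, by 1.59, 1.03, 0.82 and 0.71, but only 228038_at separated the groups. On 213721_at the Pfeiffer arrays read 6.63, 5.74 and 7.03 after BCL6 siRNA, against 5.80, 5.20 and 6.26 in control cells. On 213722_at they read 5.57, 4.56 and 6.19, against 4.68, 4.45 and 4.73. Replicate 2 of the siRNA arrays was the lowest of its group on both and lay within the range of the controls, whereas on 228038_at it read 7.54 between the other siRNA arrays. Without that array the Pfeiffer difference was 1.08 on 213721_at and 1.26 on 213722_at. Without siRNA replicate 3, the highest of its group on both, the difference was 0.43 on 213721_at and 0.44 on 213722_at. On 214178_s_at the Pfeiffer arrays read 6.77, 6.34 and 6.92 after BCL6 siRNA, against 6.40, 4.71 and 5.81 in control cells.

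In OCI-Ly7 the SOX2 probe sets disagreed in sign. The means were lower after BCL6 siRNA on 228038_at (-0.40), 213721_at (-0.43) and 214178_s_at (-0.72) and higher on 213722_at (0.16), and none was called (limma, adjusted p = 0.395, 0.729, 0.699 and 0.957). On 213721_at the arrays read 9.72, 10.06 and 9.96 after BCL6 siRNA, against 10.40, 10.31 and 10.32 in control cells, without overlap. The difference between the controls of the lines was the same in sign on all 4, -5.65, -4.59, -3.59 and -1.20, and each was called (limma, adjusted p up to 0.0434). The call of 214178_s_at was lost on leaving out any of the 3 OCI-Ly7 control arrays, OCI-Ly7 siRNA replicate 1, Pfeiffer control replicates 2 and 3 or Pfeiffer siRNA replicates 1 and 3 (limma, adjusted p up to 0.218, without Pfeiffer control replicate 2). It was also lost with the replicate number as a block (adjusted p = 0.0605), without a trend (0.0513), with the controls fitted alone (0.0688) and with quantile normalization (0.0717). With 64 added in place of 16 the difference was -2.24 on 213722_at and -0.69 on 214178_s_at.

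**Figure D3:**
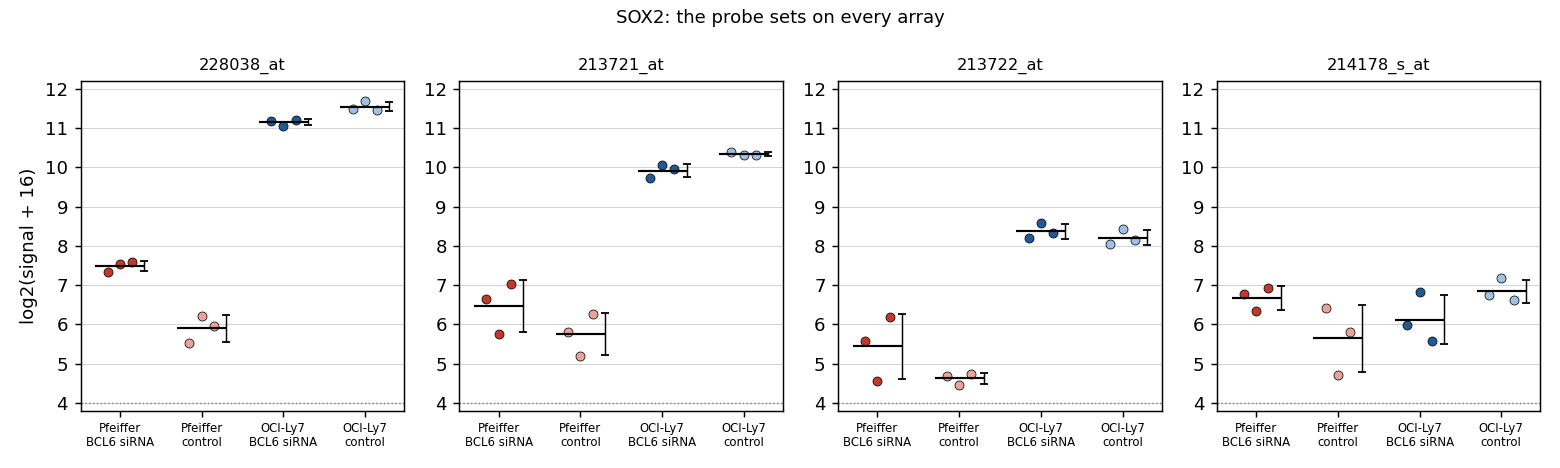
The 4 probe sets of SOX2 on the 12 arrays, in log2(signal + 16), with points for arrays, lines for means, bars for SDs and a dotted line at 4, where a signal of 0 would lie. OCI-Ly7 is bright on 3 of the 4 probe sets, and in Pfeiffer only 228038_at has all siRNA arrays above all control arrays.

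In OCI-Ly7, limma called 0 of the 14 probe sets at an adjusted p of 0.05, where it called 0.455% of all probe sets. At an unadjusted p under 0.05 there were 4, beside 9.24% of all probe sets. They were 223463_at and 220955_x_at of RAB23 (0.42 and 0.58), 211126_s_at of CSRP2 (0.43) and 228038_at of SOX2 (-0.40). In simulated data the fit called 37.3% of changes of 0.4 added to brighter probe sets in this line, so changes of that size can be missed. That rate does not cover dim probe sets such as that of C2CD4A. Arrays of the groups did not overlap for 3 probe sets higher after BCL6 siRNA, beside 7.55% of all, and 2 lower, beside 8% of all. The median change of the 14 probe sets, several of them from one gene, was 0.09 in OCI-Ly7, where the median of all probe sets was -0.01. In Pfeiffer the median was 1.26, where that of all was 0.02, a difference that the choice of genes itself produced. For CSRP2 the second probe set read 8.59, 8.38 and 8.54 after BCL6 siRNA, against 8.01, 8.17 and 8.05 in control cells of OCI-Ly7, while the first overlapped, so the probe sets of CSRP2 differ on whether OCI-Ly7 moved.

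Genes of related function were gathered in 6 lists, chosen for the known role of each member, with the members left out. Of the 74 measured genes in these lists, 1 was called in Pfeiffer, beside 5.92% of all genes at their brightest probe set. In OCI-Ly7 0 were called, beside 0.637% (limma, adjusted over all probe sets). At an unadjusted p under 0.05 there were 13 in Pfeiffer, beside 18.1% of all genes, and 13 in OCI-Ly7, beside 10.9%. In the sialic acid pathway 0 of 20 genes were called in either line, with a median change of 0.09 in Pfeiffer, where that of all genes was 0.01, and 6 in Pfeiffer and 5 in OCI-Ly7 had an unadjusted p under 0.05. In this list 1 gene was called in either line with only the brighter probe sets kept or without Pfeiffer siRNA replicate 3, and 1 in Pfeiffer without Pfeiffer siRNA replicate 2. The steps next to CMAS were chosen for mention after their values were seen. GNE and NANS, which make sialic acid before CMAS acts, stood at -0.01 and 0.22 in Pfeiffer (limma, adjusted p = 0.984 and 0.217). SLC35A1, which carries the CMAS product into the Golgi, stood at 0.25 (adjusted p = 0.0815), and ST6GAL1, the main sialyltransferase of B cells, at 0.15 (adjusted p = 0.12).

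In the Hedgehog list, 1 of 15 genes was called in Pfeiffer, where 3.05% of all genes were called lower, and the median change was -0.04. It was GLI1, a transcription factor of the pathway, which fell by 1.65 on the log2 scale (± 0.34 SE, limma, adjusted p = 0.0104). GLI1 read 4.60, 4.96 and 4.92 after BCL6 siRNA, against 5.68, 6.74 and 7.01 in control cells of Pfeiffer, so its siRNA arrays were below all control arrays and near the floor. In OCI-Ly7 its change was -0.04 (adjusted p = 0.99), and the difference between the lines of -1.61 was not called (limma, adjusted p = 0.117). Its Pfeiffer call was lost without Pfeiffer control replicate 3 (-1.38, adjusted p = 0.0613) and with Pfeiffer fitted alone (adjusted p = 0.0776). The size of the GLI1 change rests on the added value, at -2.46 with 1 and -0.87 with 64. PTCH1, the Hedgehog receptor, and the inhibitor SUFU were named after their values were seen, and stood at 0.25 and 0.44 in Pfeiffer (adjusted p = 0.489 and 0.613).

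The other lists had 0 called genes in either line in limma. At an unadjusted p under 0.05 the SOX family had 1 of 17 genes in Pfeiffer and 5 in OCI-Ly7. The LIM-only and CRP family had 1 and 2 of 10, the IQGAP list 4 and 0 of 10 and the C2CD4 family 0 and 0 of 2. Over all genes 18.1% had such a p in Pfeiffer and 10.9% in OCI-Ly7. The LIM-only list had 1 called gene with Pfeiffer fitted alone and 1 in OCI-Ly7 without OCI-Ly7 siRNA replicate 2, and the IQGAP list 1 in Pfeiffer without Pfeiffer siRNA replicate 3. The lists were the SOX family (17 genes, median change -0.01 in Pfeiffer), the LIM-only and CRP family (10 genes, 0.07), IQGAP proteins and their partners (10 genes, 0.08) and the C2CD4 family (2 genes, -0.14). Close relatives were again chosen after their values were seen, and none of them was called in Pfeiffer. CSRP1 stood at -0.14 and CSRP3 at 0.27 (limma, adjusted p = 0.258 and 0.636), and SOX1 at -0.28 and SOX3 at 0.26 (0.884 and 0.888). IQGAP1 stood at 0.18 and IQGAP3 at 0.43 (limma, adjusted p = 0.246 and 0.362), and C2CD4B at 0.22 and C2CD4C at -0.49 (0.927 and 0.813). Of 5 measured pluripotent and neural markers 0 lay above the array median in any group. Their summed linear signal was 75.4 to 151 after BCL6 siRNA, against 69.1 to 197 in control cells of Pfeiffer, and 120 to 226, against 124 to 159, in OCI-Ly7.

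**Figure D4:**
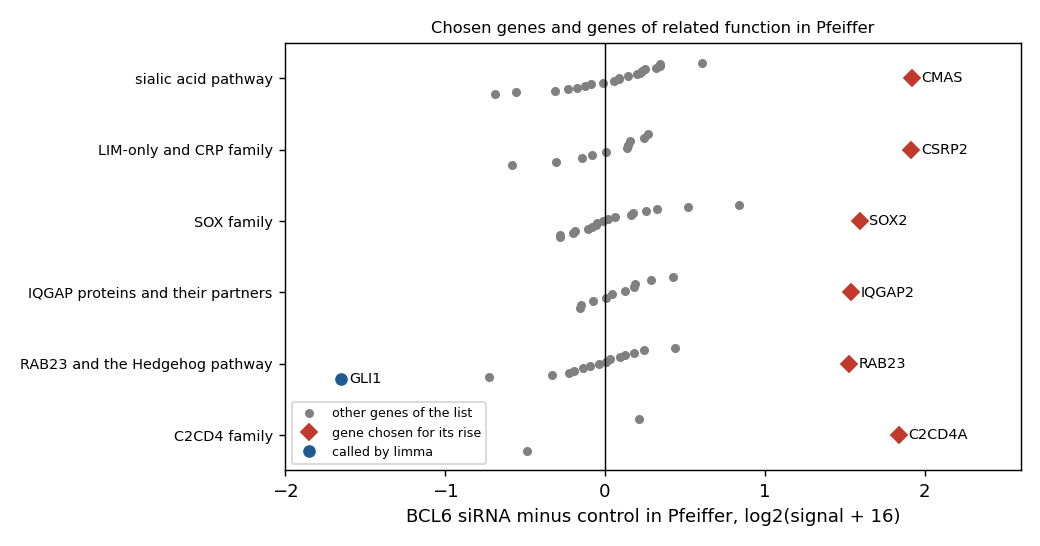
Change in Pfeiffer (BCL6 siRNA minus control, log2(signal + 16)) of the chosen genes (diamonds) and of the 74 other genes in 6 lists (circles), at the brightest probe set of each gene. The chosen genes lie between 1.53 and 1.92 by construction, and of the others GLI1, at -1.65, was called by limma.

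Likeness was measured as the root mean square difference of the 12 array values after centring, over 14425 genes whose values ranged over at least 1. CMAS and CSRP2 were each other's nearest gene, 0.18 apart, and RAB23 came next for both, at 0.28 from CMAS and 0.25 from CSRP2. The gene nearest to RAB23 was INSIG1, which retains sterol regulators in the endoplasmic reticulum, at 0.17. INSIG1 averaged 13.10 after BCL6 siRNA and 11.67 in control cells of Pfeiffer, and 13.06 and 12.81 in OCI-Ly7. For SOX2 the nearest were the serine protease inhibitor SERPINI1 and the p53-induced stress protein TP53INP1, both 0.40 away, and for IQGAP2 the glutathione transferase MGST1 (0.38) and the filamin regulator RFLNB (0.45). For C2CD4A they were SLAMF7, a receptor of plasma cells and natural killer cells (0.56), and the keratin KRT5 (0.56). The distance counts the difference between the lines together with the change after siRNA. In Pfeiffer SLAMF7, KRT5 and RFLNB were not called (1.01, 1.02 and 0.66, limma, adjusted p = 0.136, 0.214 and 0.141). SERPINI1, TP53INP1 and MGST1 were called (1.13, 0.95 and 0.95), which is not independent of their likeness to genes picked for a rise. These values describe 12 arrays that share 2 lines and 4 groups. The arrays include those on which the 6 genes were picked for a large rise, so closeness between members is partly built in by that choice.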

How the data were processed

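Total RNA of 12 arrays in 4 groups of 3 was used. Per the submitters' processing notes, the authors made MAS5 signals with affy, without stated versions, and deposited them as log2 values. Transformed back, the mean of each array, trimmed by 2% at either end, is 500.0, so the authors had scaled the arrays to one level; no further normalization was applied, and 21.2% to 23.1% of probe sets per array read below 16. Gene names came from GEO's 2016 annotation of the array (41091 with 1 symbol, 1801 with several, which were left out). Linear signals were turned into log2(signal + 16) and fitted without a filter by limma 3.58.1 in R 4.3.3 (lmFit, eBayes with trend, 4 group means, 8 residual degrees of freedom), two-sided, with Benjamini-Hochberg adjustment over all 41091 probe sets and a threshold of 0.05. Intervals are 95% intervals from limma. A gene in a list is read at its brightest probe set.

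The number of arrays limits the precision. The genes and lists were chosen with earlier results of these data known. Genes named are the 6 members at every probe set, BCL6, the 2 nearest genes of each member and up to 3 (Pfeiffer) or 2 (OCI-Ly7) called genes of a list. Other list genes, the B cell markers and the markers CD8A, EPCAM and their list mates were named after their values were seen. The fit was tested on simulated data, with log2 changes added to brighter probe sets. In OCI-Ly7 it called 37.3% of changes of 0.4, 83.6% of 0.7 and 92.6% of 1.0. In Pfeiffer it called 21.1%, 81.25% and 90.8% of them. Of its calls, 5.19% were false in OCI-Ly7 and 3.82% in Pfeiffer. Alternatives were other pseudocounts, quantile normalization, a filter on dim probe sets, one probe set per gene, no trend, array weights, a replicate block, separate fits and each array left out. Same-numbered arrays did not deviate together (correlations of -0.0067 to 0.0106). Figures used Python 3.11.15 and matplotlib 3.10.9.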

Additional observations from a re-analysis of the deposited data

Results flagged for a closer look

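SOX2 on 228038_at is listed because every BCL6 siRNA array lay above every control array in Pfeiffer and below every control array in OCI-Ly7. The change in Pfeiffer minus that in OCI-Ly7 was 1.99 on the log2 scale. This difference was not tested, since the gene was chosen for its Pfeiffer change. BCL6 is listed because the effect of its siRNA differed between the lines in limma. The change in Pfeiffer minus that in OCI-Ly7 was -0.54 on 203140_at (adjusted p = 0.0138), -0.80 on 215990_s_at (adjusted p = 0.0013) and -0.81 on 228758_at (adjusted p = 0.00137), with all 3 siRNA arrays below all 3 control arrays in each line for each of these probe sets.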

How the results depend on the processing

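Limma called 187 probe sets in OCI-Ly7, 331 with only the brighter probe sets kept, 27 without a trend and 67 to 240 on leaving out an array, with 67 to 115 when it was any of the 6 OCI-Ly7 arrays. In Pfeiffer it called 1977, 1292 with one probe set per gene, 737 without a trend and 1284 to 1895 on leaving out an array (1284 without control replicate 3 of Pfeiffer). Between controls it called 16641, 8807 with one probe set per gene, which tests fewer probe sets, and 15502 to 16861 on leaving out an array. With the replicate number as a block, which the labels do not tie to a shared culture, it called 139 in OCI-Ly7 and 1750 in Pfeiffer, and BCL6 in OCI-Ly7 had an adjusted p of 0.0517. That BCL6 call was also lost without a trend (adjusted p = 0.287).

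Of the 14 member probe sets, 0 were called in OCI-Ly7 under every alternative run but one: fitted on the OCI-Ly7 arrays alone, 1 was called (SOX2 on 228038_at). Between controls 11 were called, 6 with one probe set per gene, where 6 were tested, and 9 to 11 on leaving out an array. Quantile normalization gave 9, without CSRP2 on 211126_s_at (-0.29, adjusted p = 0.162) and SOX2 on 214178_s_at (-1.06, adjusted p = 0.0717).

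Changes near 0 turned sign without passing the threshold. In OCI-Ly7 CMAS on 218111_s_at stood at -0.020 with array weights and C2CD4A at -0.022 with a pseudocount of 64. On leaving out an array the OCI-Ly7 change ran from -0.13 to 0.16 for CMAS on 218111_s_at, from -0.17 to 0.16 on 241065_x_at, from -0.027 to 0.10 for CSRP2 on 207030_s_at, from -0.53 to 0.61 for IQGAP2 on 241723_at and from -0.25 to 0.62 for C2CD4A. The difference of IQGAP2 on 241723_at between controls ran from -0.81 to 0.52. The causes were not tested. Signals near the floor, as for IQGAP2 in Pfeiffer and C2CD4A in OCI-Ly7, limit what can be read from the size of a change.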
